A study of Mus musculus with 33 samples.

Results

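The kidney concentrates urine by keeping its medulla salty and rich in urea, and the genes described here are those that make this possible and those that let cells live there. They were taken as a list of 10, chosen with earlier results of these data known, so counts beside the share of the array are descriptions. It held the osmolyte carriers and enzyme Slc5a3, Slc6a6, Slc6a12 and Akr1b3, and their regulator Nfat5. The others were the water channels Aqp1, Aqp2 and Aqp3, the vasopressin receptor Avpr2 and the urea transporter Slc14a2. Of the 10 genes, 9 had at least 1 probe set named for them alone, with 19 probe sets between them, out of 17097 named genes and 45037 probe sets on the array. Akr1b3, the aldose reductase that makes sorbitol, is not analysed here, since none of the named probe sets belongs to it. Each gene was read from its brightest probe set over all 33 arrays.

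The kidneys came from mice of 1 strain, NZB X NZW F1 (BWF1), which develops a lupus-like nephritis. Treated mice (ADV_IFNa) had received an adenovirus that makes them produce interferon-alpha (Adv-IFNα), and 5 kidneys each were taken at weeks 1, 2, 3, 5, 7 and 9. The other 3 kidneys were from untreated mice. The methods describe female mice. No group received an empty virus, so interferon and vector cannot be told apart in a comparison with untreated mice. The study calls its controls age-matched, but 1 untreated group stands against 6 collection weeks and the labels do not say which week it matches, so age and treatment cannot be told apart at the other weeks. Later treated weeks also mean older mice, so age and time after treatment cannot be told apart between treated weeks either. Values are log2 intensities, so a difference of 1 is a 2-fold change. An adjusted p is from limma with Benjamini-Hochberg adjustment over all 45037 probe sets, and "passed" means an adjusted p below 0.05. RNA was from whole kidney, in which fewer cells of a type and less RNA per cell cannot be told apart.

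Water leaves the tubule through aquaporins, and vasopressin, acting on its V2 receptor in collecting duct principal cells, brings Aqp2 to the apical membrane. Urea carried by the transporters encoded by Slc14a2 adds to the concentration of the inner medulla. Cells in this environment take up myo-inositol, taurine and betaine as compatible osmolytes, and the transcription factor NFAT5 (TonEBP) drives the carriers for them when tonicity is high.

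Across the 33 arrays, the median value lay between 3.97 and 4.10 and array pairs correlated between 0.965 and 0.994. Tubule markers were bright in all kidneys, with uromodulin (Umod) between 10.76 and 11.33. The difference between the 3′ and 5′ control probe sets of beta-actin, which rises as RNA degrades, averaged between 1.88 and 2.02 in the 6 treated groups, against 1.57 ± 0.16 (SD, n = 3) in untreated kidneys. The mean of 4 red blood cell genes varied as well, from 6.16 at week 1 to 8.05 at week 3. Both were used as covariates in alternative fits.

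Slc5a3, the sodium-coupled carrier of myo-inositol, fell from week 3 on. It was 6.21, 5.91 and 5.99 in the untreated kidneys, and 6.16, 5.40, 5.74, 5.15 and 5.53 at week 1. The values at week 2 were 5.08, 5.22, 5.47, 5.64 and 5.64. At week 3 they were 5.29, 4.58, 4.63, 4.86 and 4.65. Thus from week 2 every treated kidney lay below every untreated one, while at week 1 the groups overlapped through 1 kidney. The later weeks stayed low, with 4.56, 5.23, 4.65, 4.84 and 4.37 at week 5. Week 7 gave 4.37, 4.29, 4.35, 5.38 and 4.86. Week 9 gave 4.59, 4.87, 4.62, 4.61 and 4.23.

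Slc5a3 was 2.35-fold lower at week 3 than in untreated kidneys (log2 difference -1.23, SE 0.22, 95% interval -1.69 to -0.78, adjusted p = 0.00107). It was 2.47-fold lower at week 5 (adjusted p = 5.17e-04), 2.61-fold lower at week 7 (adjusted p = 5.82e-05) and 2.73-fold lower at week 9 (adjusted p = 4.87e-05). The differences at week 1, -0.44, and at week 2, -0.62, did not pass (adjusted p = 0.389 and 0.157). Between weeks 7 and 5 the gene differed by only -0.08 (95% interval -0.47 to 0.31), and the late kidneys of weeks 7 and 9 were lower than those of weeks 1 to 3 by -0.65 (SE 0.12, adjusted p = 1.52e-04). With the beta-actin difference as a covariate, the week 3 value was -1.45 (adjusted p = 0.00448) and the week 9 value -1.73 (adjusted p = 0.00186). Slc5a3 had a single probe set, so no second measurement on the array bears on it. That probe set was not bright, with a mean of 5.06 that exceeded 63.3% of probe sets. Its means at weeks 3, 5, 7 and 9 were 4.80, 4.73, 4.65 and 4.58, against array medians between 3.97 and 4.10.

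**Figure D1:**
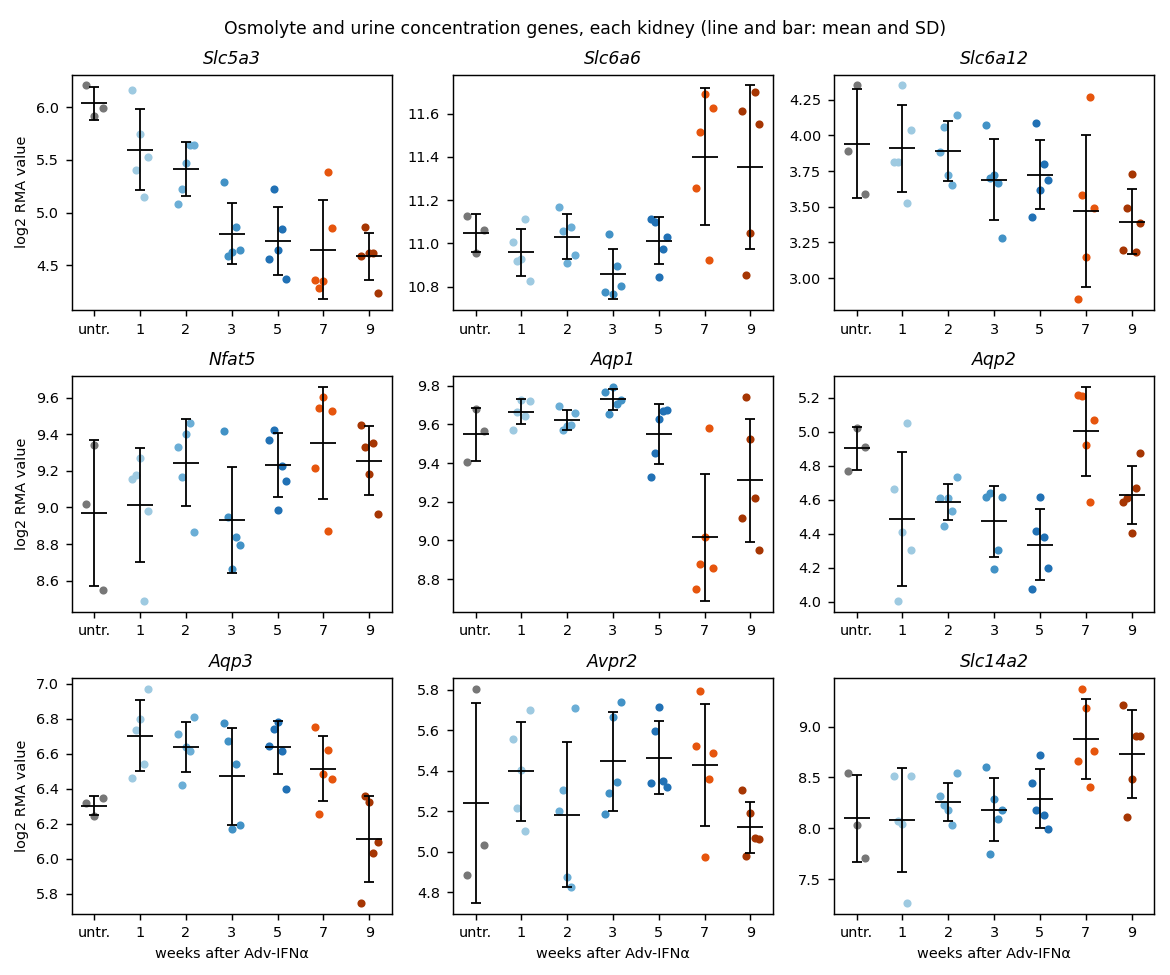
Log2 values of the 9 measured genes (vertical axes, each with its own range) in untreated kidneys and by weeks after Adv-IFNα (horizontal axes). Points are single kidneys, and lines with bars are the mean and SD. Slc5a3 lies below all 3 untreated kidneys in every treated kidney from week 2 on, while Slc6a6 and Slc14a2 stay near the untreated level until week 5.

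The promoter of Slc5a3 is shown beside that of Slc6a12 because both genes are known targets of NFAT5, whose DNA element (the tonicity-responsive enhancer, TonE) holds the core TGGAAA. The 250 bases before the RefSeq start of transcription (GRCm38.p6) are given 5′ to 3′, with the core in capitals.
Slc5a3, chr16:92058072-92058321, plus strand: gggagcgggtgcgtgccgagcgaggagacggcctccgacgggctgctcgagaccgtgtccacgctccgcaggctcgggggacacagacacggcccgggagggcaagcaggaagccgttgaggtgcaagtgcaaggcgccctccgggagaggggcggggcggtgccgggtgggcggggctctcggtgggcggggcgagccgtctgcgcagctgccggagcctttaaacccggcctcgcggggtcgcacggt
Slc6a12, first of 5 annotated starts, chr6:121342324-121342573, plus strand: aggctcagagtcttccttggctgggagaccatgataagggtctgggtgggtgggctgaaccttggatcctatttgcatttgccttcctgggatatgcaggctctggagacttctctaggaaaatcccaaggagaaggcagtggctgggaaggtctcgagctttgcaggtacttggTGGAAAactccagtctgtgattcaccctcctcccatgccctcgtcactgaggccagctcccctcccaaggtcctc
Of the 9 measured genes, 7 had an entry, with 11 windows in all. The core, searched as TGGAAA on both strands, occurred in 1 of them, the Slc6a12 window above, 75 bases before the start on the plus strand. The full TonE consensus matched at the same place and overlaps the core there. Over all 32851 windows of this length, 18.6% held TGGAAA and 4.31% the full consensus. The Slc5a3 window was GC-rich (74.8%) and held no match, which says only that these letters are not in these bases.

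Early after treatment no other gene of the list passed. In limma, 0 of 9 members passed at week 1 in either direction, where 1.00% of all probe sets were higher and 0.426% lower. At an unadjusted p below 0.05, 1 member was higher (Aqp3) and 1 lower (Aqp2). At week 2 the count was again 0 of 9, beside 0.877% of probe sets higher and 0.449% lower, and the unadjusted counts were 1 higher (Aqp3) and 1 lower (Slc5a3). At week 3, 1 of 9 was lower, Slc5a3, where the share over all probe sets was 0.302%, and 0 were higher, where it was 1.07%. The week 5 counts were the same, 1 lower and 0 higher, against 1.11% and 1.85% of probe sets. At an unadjusted p below 0.05, 0 members were higher at week 3 and 1 (Aqp3) at week 5, and 2 were lower at each of these weeks, Slc5a3 and Aqp2.

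At week 7 more of the array passed than before, and Slc14a2 and Aqp1 joined Slc5a3. Slc14a2 was higher, Slc5a3 and Aqp1 were lower, so 1 of 9 members rose beside 9.85% of probe sets and 2 of 9 fell beside 5.82%. The count of higher members was thus near the share of the array. Over the 17097 named genes, each read from 1 probe set, 2251 were higher and 1168 lower. At week 9 only Slc5a3 passed, 1 of 9 lower beside 7.53%, and 0 of 9 were higher beside 6.41%, with 1 higher (Slc14a2) and 2 lower (Slc5a3 and Slc6a12) at an unadjusted p below 0.05. The median change over the 9 members was 0.19 at week 7 and -0.19 at week 9, against 0.03 and -0.03 over all named genes. Apart from Slc5a3, then, the differences from untreated kidneys were small or uneven between genes.

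**Figure D2:**
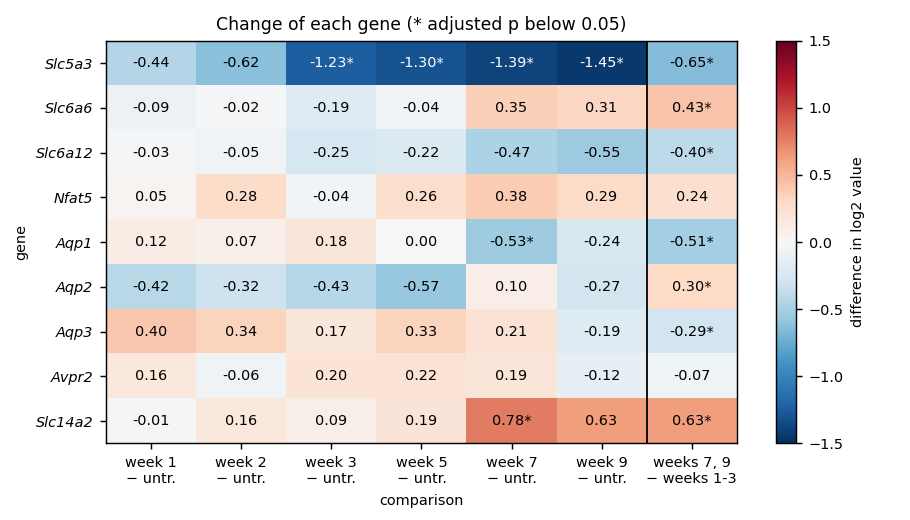
Log2 difference of each gene (rows) for each week minus untreated and for weeks 7 and 9 minus weeks 1 to 3 (columns), with colour from blue (lower) to red (higher) and an asterisk for an adjusted p below 0.05. Only Slc5a3 carries an asterisk at weeks 3, 5 and 9, and 7 of the 9 genes carry one in the last column.

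Slc6a6, the taurine transporter, did not pass against untreated kidneys through week 5 and was higher in most late kidneys. At week 3, 4 of 5 kidneys lay below all untreated ones (difference -0.19, adjusted p = 0.628). Slc6a6 measured 11.25, 11.51, 11.69, 10.92 and 11.63 at week 7 and 11.61, 10.85, 11.05, 11.70 and 11.55 at week 9, against 11.13, 10.95 and 11.06 in untreated kidneys. In 4 of 5 kidneys at week 7 and 3 of 5 at week 9 it exceeded all untreated kidneys, and in 1 of 5 at each week it was below all of them. The differences from untreated kidneys were 0.35 (SE 0.15, adjusted p = 0.124) at week 7 and 0.31 (adjusted p = 0.193) at week 9 and did not pass. They passed without week 7 replicate 4 (0.47, adjusted p = 0.0216) and without week 9 replicate 2 (0.43, adjusted p = 0.0418). Within the treated kidneys, weeks 7 and 9 were higher than weeks 1 to 3 by 0.43 (SE 0.087, adjusted p = 3.27e-04). Slc6a6 averaged 10.95 in weeks 1 to 3, a little below its untreated mean of 11.05. Its next 2 probe sets by brightness were also higher in that comparison, by 0.33 (adjusted p = 0.00935) and 0.34 (adjusted p = 0.021), while the dimmest differed by -0.02 (adjusted p = 0.915). At week 7 the one of these with a mean of 5.77 passed against untreated kidneys too (0.65, adjusted p = 0.0186), higher in 5 of 5 kidneys than in any untreated one, as did the mean of all 4 probe sets (0.37, adjusted p = 0.0324). The brightest probe set thus missed a threshold at week 7 that another probe set of the gene passed.

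Slc6a12 encodes the betaine and GABA transporter, and its probe set was dim, with a mean of 3.70 that exceeded 45.3% of probe sets. Values were 2.85, 3.58, 3.15, 4.27 and 3.49 at week 7 and 3.19, 3.49, 3.73, 3.18 and 3.39 at week 9, against 3.89, 4.35 and 3.59 in untreated kidneys. The groups overlapped through week 7 replicate 4 and through week 9 replicate 3. Neither week passed (-0.47, adjusted p = 0.155, and -0.55, adjusted p = 0.0969), though without week 7 replicate 4 the week 7 value was -0.67 (adjusted p = 0.0169). Weeks 7 and 9 were lower than weeks 1 to 3 by -0.40 (SE 0.12, adjusted p = 0.0193), a difference that was -0.32 (adjusted p = 0.0614) without week 7 replicate 1.

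Nfat5, the regulator of these carriers, passed in none of the comparisons. It ranged between 8.87 and 9.60 at week 7 and between 8.96 and 9.45 at week 9, against 8.55 to 9.34 in untreated kidneys, and the largest difference from untreated was 0.38 at week 7 (95% interval -0.00 to 0.77, adjusted p = 0.179). Its 4 other probe sets were dimmer, with means between 1.69 and 4.56, and none of them passed either. Averaged over all 5 probe sets, Nfat5 differed by -0.04 at week 7 (adjusted p = 0.832). Against weeks 1 to 3, the late kidneys differed by 0.24 (adjusted p = 0.113), by 0.30 without week 7 replicate 4 (adjusted p = 0.0338) and by 0.28 without week 3 replicate 1 (adjusted p = 0.0498). In the late kidneys, therefore, the 3 osmolyte carriers did not share a direction: Slc5a3 and Slc6a12 were lower than at weeks 1 to 3 and Slc6a6 was higher.

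Aqp1, the constitutive water channel of the proximal tubule and the thin descending limb, fell at week 7. It was 8.75, 8.88, 9.02, 9.58 and 8.86 at week 7, against 9.41, 9.68 and 9.56 in untreated kidneys, so 4 of 5 kidneys lay below every untreated kidney and replicate 4 lay among them. The difference was -0.53 (SE 0.15, 95% interval -0.83 to -0.24, adjusted p = 0.0106), a level 1.45-fold lower. The call was lost when untreated replicate 2 was left out (-0.47, adjusted p = 0.0582) and with only these 2 groups in the fit (adjusted p = 0.127). At week 9 the values were 9.12, 9.74, 9.53, 9.22 and 8.95, and the difference of -0.24 did not pass (adjusted p = 0.290). Before that the gene was steady, between 9.33 and 9.79 in all 20 kidneys of weeks 1 to 5.

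The fall of Aqp1 also appeared within the treated kidneys, where week 7 was lower than week 5 by -0.53 (SE 0.13, adjusted p = 0.00631) and weeks 7 and 9 lower than weeks 1 to 3 by -0.51 (SE 0.082, adjusted p = 1.51e-05), with 8 of 10 late kidneys below all early ones. With the red blood cell signal as a covariate the first of these was -0.39 (adjusted p = 0.186). Other proximal tubule markers moved alongside. Of 7 measured, 5 were lower at week 7 and 2 at week 9 than in untreated kidneys, and their mean value ranged from 7.58 to 8.92 at week 7 and from 7.75 to 8.92 at week 9, against 8.84 to 8.97 in untreated kidneys. Their part in the Aqp1 result was not tested.

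Aqp2, the vasopressin-regulated channel of principal cells, had a dim probe set (mean 4.61, above 57.7% of probe sets). Its values were 4.08, 4.42, 4.61, 4.38 and 4.20 at week 5 and 5.22, 5.21, 4.92, 4.59 and 5.07 at week 7, with 4.77, 5.02 and 4.91 in untreated kidneys. All week 5 kidneys were below the untreated ones, yet the difference of -0.57 (SE 0.17, adjusted p = 0.0585) missed the threshold, and without week 5 replicate 3 it was -0.64 (adjusted p = 0.0473). Week 7 exceeded week 5 by 0.67 (SE 0.15, adjusted p = 0.00328), while it differed from untreated by only 0.10 (95% interval -0.24 to 0.44). At week 9 the values lay between 4.40 and 4.88 (difference from untreated -0.27, adjusted p = 0.296). Aqp2 was thus lowest at week 5, and its late level exceeded that of weeks 1 to 3 by 0.30 (SE 0.094, adjusted p = 0.0192). The means were 5.00 at week 7 and 4.63 at week 9, against 4.49, 4.59 and 4.47 at weeks 1, 2 and 3. Weeks 1 to 3 differed from untreated kidneys by -0.42, -0.32 and -0.43 (adjusted p = 0.245, 0.388 and 0.219), without overlap at weeks 2 and 3. The late mean of 4.82 was therefore not above the untreated mean of 4.90.

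Between weeks 7 and 5, 1 of 9 members was higher (Aqp2) beside 4.72% of probe sets, and 1 of 9 was lower (Aqp1) beside 3.77%. Week 7 replicate 4 bore on this comparison, since without it 4 members passed. With the red blood cell signal as a covariate neither passed, and Aqp2 then differed by 0.66 (adjusted p = 0.0613). That signal averaged 6.46 ± 1.37 at week 7 and 7.86 ± 0.39 at week 5 (SD, n = 5 each).

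Aqp3, the basolateral water and glycerol channel of the same cells, did not pass against untreated kidneys at any week. Its values were 6.46, 6.73, 6.80, 6.54 and 6.97 at week 1, against 6.32, 6.24 and 6.35 in untreated kidneys, without overlap, but the difference of 0.40 (SE 0.15) did not pass (adjusted p = 0.191). The second probe set, with a mean of 5.86, overlapped with untreated kidneys at weeks 1, 2 and 5. It differed there by -0.05, 0.02 and 0.05 (adjusted p = 0.897, 0.966 and 0.891). At week 9 the values of the brightest probe set were 5.75, 6.36, 6.32, 6.03 and 6.09 (difference -0.19, adjusted p = 0.418). By that probe set, weeks 7 and 9 were lower than weeks 1 to 3 by -0.29 (SE 0.083, adjusted p = 0.00918), and the mean of the 3 probe sets gave -0.20 (adjusted p = 0.0568). Singly, the 2 others did not pass (-0.15 each, adjusted p = 0.118 and 0.512). Avpr2, the V2 receptor itself, passed nowhere, with week means between 5.12 and 5.46, against 5.24 ± 0.49 (SD, n = 3) in untreated kidneys.

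Slc14a2, which encodes the UT-A urea transporters, was the only member whose brightest probe set passed as higher at week 7. That call was lost in 9 of 17 alternative fits. Slc14a2 measured 8.67, 9.37, 9.18, 8.41 and 8.76 at week 7 and 9.22, 8.11, 8.49, 8.91 and 8.91 at week 9, against 8.55, 8.03 and 7.71 in untreated kidneys. At week 7, 4 of 5 kidneys exceeded all untreated ones, and at week 9 3 of 5 did. The rise was 0.78 at week 7 (SE 0.25, 95% interval 0.27 to 1.29, adjusted p = 0.0313) and 0.63 at week 9 (adjusted p = 0.0910). Leaving out week 9 replicate 2 made that week 9 difference 0.78 (adjusted p = 0.0302). Without untreated replicate 3 the week 7 difference was 0.59 (adjusted p = 0.195). With the beta-actin difference as a covariate it was 0.63 (adjusted p = 0.287).

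The 2 probe sets of Slc14a2 disagreed. The second, with a mean of 2.24, exceeded 20.3% of probe sets and was lower at week 7 by -0.58 (adjusted p = 0.0143) and at week 9 by -0.69 (adjusted p = 0.00495) than in untreated kidneys. The mean of both gave 0.10 at week 7 (adjusted p = 0.654). Against weeks 1 to 3, which do not depend on the untreated kidneys, the brighter probe set was higher in weeks 7 and 9 by 0.63 (SE 0.14, adjusted p = 0.00111), with 7 of 10 late kidneys above every early one. The dimmer probe set differed there by -0.13 (adjusted p = 0.393). Over the alternatives, the Slc14a2 estimate for weeks 7 and 9 against weeks 1 to 3 lay between 0.25 and 0.70 and passed in each.

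In that comparison of weeks 7 and 9 with weeks 1 to 3, 3 of 9 members were higher (Slc14a2, Slc6a6 and Aqp2) beside 11.2% of probe sets, and 4 of 9 were lower (Slc5a3, Aqp1, Slc6a12 and Aqp3) beside 9.41%. For Aqp2 it was week 7 that stood out, since its week 9 mean of 4.63 was near the 4.59 of week 2. Over the 17097 named genes, each read from 1 probe set as the members are, 2540 were higher and 1993 lower. The median change of the 9 was -0.07, against 0.00 over all named genes.

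The late kidneys were not alike. Lcn2, which encodes the injury protein lipocalin-2 and belongs to the tubular injury list, was 9.55, 9.93, 8.53, 4.30 and 9.21 at week 7 and 8.84, 4.82, 5.90, 9.94 and 8.55 at week 9, with a mean of 3.97 in untreated kidneys. The 3 lowest values were those of week 7 replicate 4 and week 9 replicates 2 and 3. The same 3 kidneys had the 3 highest Aqp1 values of the 10 (9.58, 9.74 and 9.53), the 3 lowest Slc6a6 values (10.92, 10.85 and 11.05) and the 3 lowest Slc14a2 values (8.41, 8.11 and 8.49). Slc5a3 was 5.38, 4.87 and 4.62 in them, the first being the highest of the 10, and all 3 stood below the untreated kidneys. The tubular injury list as a whole (7 genes, all higher at week 7 and 6 at week 9) averaged 6.06 to 8.51 per kidney at week 7 and 6.31 to 8.64 at week 9, against 5.31 to 5.75 in untreated kidneys. At week 3, when Slc5a3 had fallen, the list averaged 5.64 to 5.99, with a median change of 0.39. In limma 0 of its genes passed then in either direction, with 1 higher at an unadjusted p below 0.05. The part of tubular injury in the member changes was not tested.

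**Figure D3:**
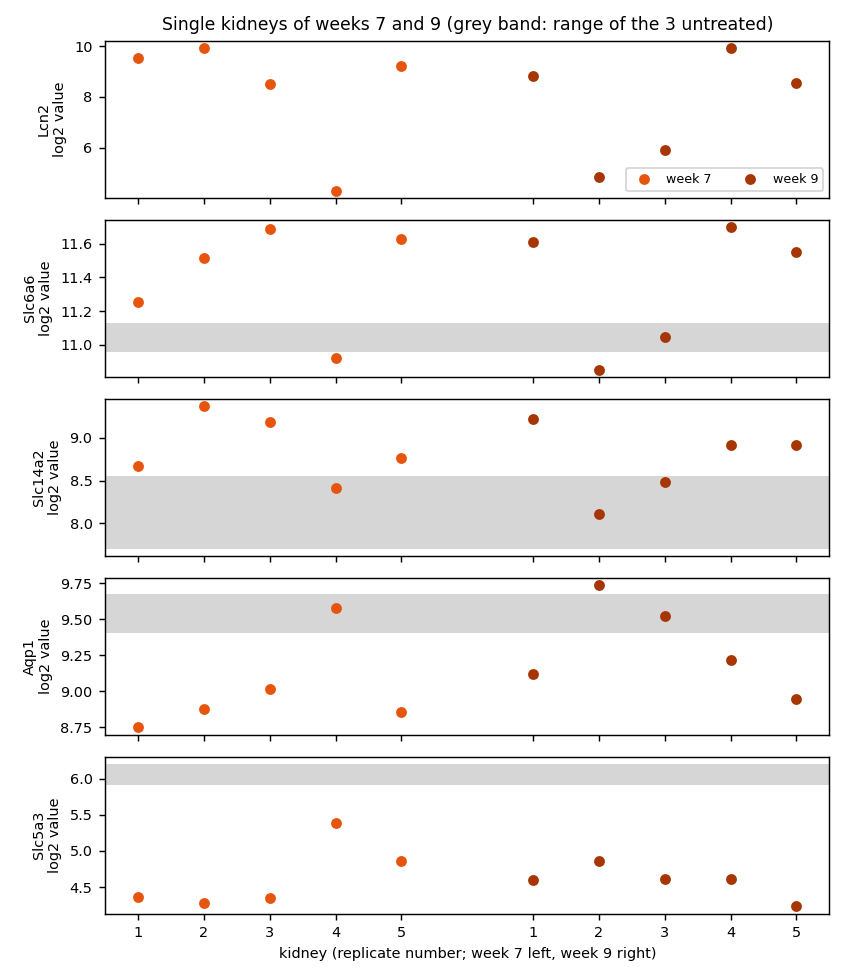
Log2 values (vertical axes) of Lcn2 and 4 members in the single kidneys of weeks 7 and 9 (horizontal axis, replicate number), with a grey band for the range of the 3 untreated kidneys in the member panels. Week 7 replicate 4 and week 9 replicates 2 and 3, lowest for Lcn2, lie within or next to the band for Slc6a6, Slc14a2 and Aqp1, and every kidney lies below it for Slc5a3.

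Many leukocyte markers rose, and 1 of 10 passed as higher at week 1, 4 at week 5, 6 at week 7 and 6 at week 9. The shares of all probe sets higher at these weeks were 1.00%, 1.85%, 9.85% and 6.41%. At week 7, 2 of the 10 estimates were negative (the lowest -0.41), and 1 marker was lower at an unadjusted p below 0.05. The mean of the leukocyte markers was 4.43 to 5.30 at week 5, when Slc5a3 was low. It was 4.83 to 5.75 at week 7 and 4.87 to 6.01 at week 9, against 3.78 to 4.10 in untreated kidneys. The part of leukocytes in the member changes was not tested. Urothelial markers, which could enter with the renal pelvis, averaged 4.47 to 5.19 at week 7, against 4.43 to 4.72 in untreated kidneys, and 1 of 6 (Krt20, also in the injury list) was higher.

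Other genes of tonicity and osmolyte handling moved in both directions. Of 8 measured, 0 passed at weeks 1, 2 and 5 in limma (1 lower at weeks 1 and 5 and 1 each way at week 2 at an unadjusted p below 0.05). Sgk1, a salt-transport kinase, was lower at week 3 by -0.66 (SE 0.16, adjusted p = 0.0194). Slc38a2, a neutral amino acid carrier, was higher at week 7 by 1.12 (SE 0.23, adjusted p = 7.86e-04) in 5 of 5 kidneys, with means of 8.51 at week 7 and 7.39 in untreated kidneys. Slc5a11, the second sodium/myo-inositol carrier, was lower by -0.64 at week 7 (adjusted p = 0.013) and -0.80 at week 9 (adjusted p = 0.00288). Both myo-inositol carriers were therefore lower in the late weeks, whereas at weeks 3 and 5 only Slc5a3 passed.

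Of 16 measured genes of vasopressin signalling and principal cells, 0 passed at any week against untreated in limma, and at an unadjusted p below 0.05 between 0 and 1 were higher and between 0 and 3 lower. Weeks 7 and 9 were lower than weeks 1 to 3 for 3 of them: Fxyd4, a subunit that modulates the sodium pump, by -0.46 (adjusted p = 0.0071), Nr3c2, the mineralocorticoid receptor, by -0.31 (adjusted p = 0.0085) and Avpr1a, the V1a vasopressin receptor, by -0.31 (adjusted p = 0.011).

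Other aquaporins fell at week 7 as well. Of 8 genes (7 aquaporins and Slc14a1), 3 were lower at week 7. Aqp4, a basolateral water channel, had a mean of 7.45 at week 7 and 9.41 in untreated kidneys (difference -1.96, SE 0.46, adjusted p = 0.00292). Aqp11, an intracellular channel of the proximal tubule, differed by -1.60 (SE 0.36, adjusted p = 0.00198) and Aqp6, a vesicle channel of intercalated cells, by -0.57 (adjusted p = 0.0111). At week 9, 0 of 8 passed in limma, with 3 lower at an unadjusted p below 0.05. Against weeks 1 to 3 the late kidneys were lower for Aqp4 (-2.02), Aqp11 (-1.07), Aqp6 (-0.69) and Slc14a1 (-0.58), the urea transporter of red cells and vasa recta. Aqp9, a water and glycerol channel with a dim probe set, was higher, with means of 3.28 in weeks 7 and 9 and 2.85 in weeks 1 to 3 (difference 0.43, adjusted p = 0.00765).

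Genes listed for the loop of Henle, where salt transport builds the gradient, were mixed, and not all of them encode salt transporters. Of 8 measured, 1 was higher and 2 lower at week 7: Cldn16, a paracellular channel for divalent cations, by 0.84 (adjusted p = 0.0011), the prostaglandin receptor gene Ptger3 by -1.12 (adjusted p = 5.78e-04) and Cldn10, a paracellular channel for sodium, by -0.46 (adjusted p = 0.0297). At week 9 Umod was higher by 0.29 (adjusted p = 0.0231), and Ptger3 and the potassium channel gene Kcnj1 (-0.46, adjusted p = 0.0132) were lower. Intercalated cell markers were lower in 3 of 5 cases at week 7 and 2 of 5 at week 9.

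Markers of the distal convoluted tubule fell too, 4 of 5 at week 7 and 4 of 5 at week 9. Pvalb, a calcium-binding protein of these cells, differed by -3.06 at week 7 (SE 0.63, adjusted p = 9.58e-04), Calb1, another, by -1.22 (adjusted p = 3.73e-04), and Slc12a3, the thiazide-sensitive salt carrier, by -0.95 (adjusted p = 9.03e-04). The list averaged 7.54 to 8.91 at week 7 and 7.44 to 8.86 at week 9, against 9.03 to 9.19 in untreated kidneys. Of 6 endothelial markers, 2 were lower at weeks 7 and 9, Kdr (-0.57 at week 7, adjusted p = 0.022) and Egfl7 (-0.54, adjusted p = 0.0152). The endothelial list did not move as a whole. At each of these weeks only 3 of the 6 estimates were negative, and 1 marker was higher at an unadjusted p below 0.05. The median endothelial change was -0.04 at week 7 and -0.06 at week 9. The part of these cell types in the member changes was not tested.

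**Figure D4:**
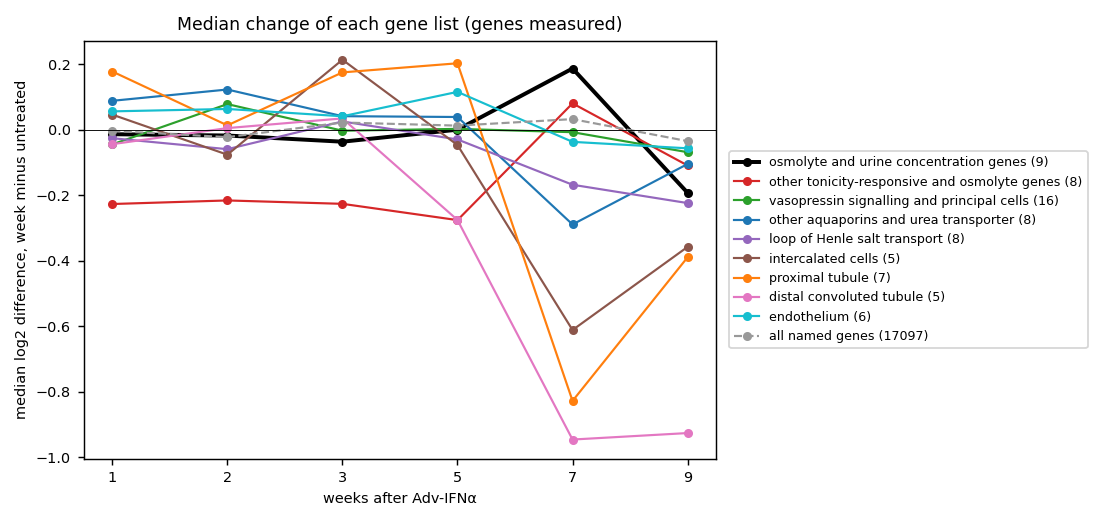
Median log2 difference from untreated kidneys (vertical axis) of each gene list by week after Adv-IFNα (horizontal axis), with the number of genes measured in the legend and all named genes as a dashed line. At week 7 the distal convoluted tubule list is at -0.95 and the proximal tubule list at -0.83, while the osmolyte and urine concentration genes are at 0.19 at week 7 and -0.19 at week 9.

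The genes whose pattern over the 33 arrays was most like each member's were found by Pearson's r among 8549 genes with a mean of at least 5.10. All points share the 7 groups, so these values are descriptions. Slc5a3 ran closest to Prdm2 (0.79), Dbt (0.79) and Ranbp3l (0.78), and Slc6a6 to Rpl12 (0.89), Vat1 (0.88) and Rell1 (0.88). Aqp1 had the highest likeness of all members, with Acsm2 (0.94), Eci3 (0.94) and Dnase1 (0.93). For Slc14a2 the genes were Rps9 (0.82), Slc40a1 (0.81) and Ccdc112 (0.81), and for Aqp2 they were Snhg6 (0.79), Npepps (0.77) and Raph1 (0.76). Avpr2 was nearest to Nme1 (0.77), Psmd12 (0.66) and Pmpca (0.65), Slc6a12 to Fam107b, Cycs and Ndufb10 (0.74 each), Nfat5 to Nfe2l2 (0.67), Purb (0.67) and Lrrfip1 (0.66), and Aqp3 to Stxbp5 (0.66), Lmtk2 (0.66) and Tek (0.65). No other member stood among the 3 genes nearest to any member. Slc5a3, Aqp2 and Slc6a12, with means of 5.06, 4.61 and 3.70, were too dim to be candidates, so they could not have been listed.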

How the data were processed

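Kidney RNA was labelled with NuGEN Ovation reagents and hybridised to Affymetrix HT-MG-430 PM arrays. The deposited values are intensities that the authors normalised by robust multi-array average (RMA) on a log2 scale. The log base is not written in the file and was taken from the range of the values, 0.58 to 13.1. The submitters' processing notes name RMA and Partek and give no version. Of 45141 probe sets, 104 controls were left out. Of the rest, 28898 were paired with 1 gene symbol, 551 with several and 15588 with none, and only the first were named. All 33 arrays, from separate mice by the series design, entered 1 model with 7 group means in limma 3.58.1 (R 4.3.3), with 26 residual degrees of freedom and two-sided tests. The number of arrays limits the precision. The model was tested on simulated data. The members and gene lists were chosen with earlier results of these data known. All members are named, with up to 4 genes per other list that passed, by size of change, and the 3 genes most like each member. Alternatives were array weights, median centring, trended and robust variance, only the groups compared, beta-actin or red blood cell covariates, no dim probe sets, mean of a gene's probe sets, a replicate block and leaving out each array.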

Additional observations from a re-analysis of the deposited data

Results flagged for a closer look

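The change against untreated kidneys differed between weeks 7 and 5 for 2 members, by a test of that difference in limma. For Aqp1 the week 7 change minus the week 5 change was -0.53 (SE 0.13, adjusted p = 0.00631), with week changes of -0.53 and 0.00. For Aqp2 it was 0.67 (SE 0.15, adjusted p = 0.00328), with week changes of 0.10 and -0.57. With the red blood cell signal as a covariate neither passed, at -0.39 for Aqp1 (adjusted p = 0.186) and 0.66 for Aqp2 (adjusted p = 0.0613), so the size of the Aqp2 difference stayed nearly the same. Among the 54 sets of 5 kidneys (9 members at 6 weeks), 0 held a kidney far from the other 4 by Dixon's test, where chance gives about 2.7.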

How the results depend on the processing

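Of 72 member changes (9 genes, 8 comparisons), 15 passed, 8 passed only under an alternative and 49 under none. No change that passed turned its sign, and the 5 Slc5a3 changes passed under every alternative. The number of members past the threshold was always 0 at weeks 1 and 2 and 1 at week 3. At week 5 it was 1, and 2 with median centring or without dim probe sets (Aqp2 added), and 1 to 2 leaving out an array (2 without week 5 replicate 3). At week 7 it was 3, but 1 with only the groups compared, and 1 to 5 leaving out an array (1 without untreated replicate 2, 5 without week 7 replicate 4). At week 9 it was 1, but 3 with the red blood cell covariate (Slc14a2 and Slc6a6 added, both higher). Leaving out an array, it was 1 to 3 at week 9 (3 without week 9 replicate 2). For week 7 minus week 5 it was 2, but 1 with only the groups compared, 0 with the red blood cell covariate, and 2 to 4 leaving out an array (4 without week 7 replicate 4). For weeks 7 and 9 minus weeks 1 to 3 it stayed between 6 and 8. The Slc14a2 rise at week 7 was also lost with array weights (0.77, adjusted p = 0.0826) and without untreated replicate 2 or week 7 replicate 2 or 3 (adjusted p between 0.0673 and 0.0891), with only the groups compared (adjusted p = 0.0843) and with the red blood cell covariate (0.62, adjusted p = 0.101). The Aqp1 difference between weeks 7 and 5 was lost with only those groups (adjusted p = 0.0683). With probe sets averaged per gene, changes that had not passed turned sign for Slc14a2, at week 9 (-0.031) and at weeks 2, 3 and 5, for Nfat5, in late against early weeks (-2.07e-04) and at weeks 1, 5, 7 and 9, for Slc6a6 at weeks 1 and 2 and for Aqp3 at weeks 2 and 7. Of the 49 changes that never passed, 28 changed sign under at least 1 alternative. The causes were not tested.

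Replicate numbers did not pair the kidneys: same-numbered arrays correlated at -0.00 on average (range -0.35 to 0.27), and 7 of 33 arrays correlated best with their own number. With the number as a replicate block, 3 members passed at week 7, 1 at week 9 and 7 in late against early weeks, as without it, and Slc5a3 at week 3 was -1.25.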
